A study of Mus musculus with 2 samples.

Results

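The genes described here are 9 apolipoprotein genes (Apoa1, Apoa2, Apoa4, Apoa5, Apob, Apoc1, Apoc2, Apoc3 and Apoe) and Mttp, the gene of the large subunit of microsomal triglyceride transfer protein. They are 10 of the 18193 genes that the mouse array named by a single symbol, and every probe set annotated with 1 of these symbols was taken, 16 in all. Liver RNA came from male wild-type C57BL/6J mice, an inbred strain, that were housed singly with a 12-h light and 12-h dark cycle and were 5 months old. CR mice were calorie-restricted for 12 weeks from 8 weeks of age, with food cut by 20% during week 1 and by 40% for the remaining 11, and AL mice ate ad libitum for the same time. RNA of 3 mice was pooled per diet and each pool was run on 1 array, so no spread between mice was measured, no p-value exists and every difference compares 2 pools. The question the design poses is which liver transcripts differ between restricted and free feeding.

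Apolipoproteins are the protein part of lipoproteins, the particles that carry triglyceride and cholesterol in blood. Apob, loaded with lipid by the transfer protein in the endoplasmic reticulum, is the structural protein of very-low-density lipoprotein (VLDL), and Apoa1 and Apoa2 are the main proteins of high-density lipoprotein (HDL). The smaller ones move between particles and set how fast lipoprotein lipase works (Apoc2 as its cofactor, Apoc3 as a brake, Apoa5 as an enhancer) or bind clearance receptors (Apoe). Liver expresses these genes, and several lie side by side in the genome.

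In the CR pool the 10 genes did not move as a block. By the brightest probe set of each gene, Apoe and Apob had signals close to 2-fold lower than in the AL pool, Apoc1, Apoc2 and Apoa4 were lower by less, Apoa1, Apoa2, Apoa5 and Apoc3 were nearly equal in both pools, and Mttp was higher. No probe set of any of the 10 genes reached a 2-fold difference. The 16 differences, on the log2 scale as CR minus AL, ran from -0.98 for Apoe to 0.36 for the brighter Mttp probe set, with 11 below 0 and 5 above. With lower signal in bulk tissue, fewer cells of a type and less RNA per cell cannot be told apart.

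Promoter windows show the genes the contrast turns on. They are printed for Apoe and Apob, the lowest differences, Apoa1, near 0, and Mttp, the highest. Each is the RefSeq window of 250 bases before to 50 after a gene start, GRCm38.p6, given 5′ to 3′ on the gene's strand. Capitals mark matches to any of the 9 short motifs searched.

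Apoe, chr7:19699139-19699438, minus strand: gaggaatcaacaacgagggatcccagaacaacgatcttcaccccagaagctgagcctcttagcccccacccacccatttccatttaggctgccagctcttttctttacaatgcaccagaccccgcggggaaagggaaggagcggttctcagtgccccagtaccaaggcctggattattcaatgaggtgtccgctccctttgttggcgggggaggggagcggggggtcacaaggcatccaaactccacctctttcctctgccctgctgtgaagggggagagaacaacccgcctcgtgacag

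Apob, chr12:7977427-7977726, plus strand: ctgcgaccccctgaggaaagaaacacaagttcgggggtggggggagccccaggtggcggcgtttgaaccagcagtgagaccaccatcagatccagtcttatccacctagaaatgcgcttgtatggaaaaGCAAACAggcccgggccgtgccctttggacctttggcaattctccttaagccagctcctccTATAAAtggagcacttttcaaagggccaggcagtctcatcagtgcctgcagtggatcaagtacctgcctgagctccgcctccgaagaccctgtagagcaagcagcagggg

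Apoa1, chr9:46228380-46228679, plus strand: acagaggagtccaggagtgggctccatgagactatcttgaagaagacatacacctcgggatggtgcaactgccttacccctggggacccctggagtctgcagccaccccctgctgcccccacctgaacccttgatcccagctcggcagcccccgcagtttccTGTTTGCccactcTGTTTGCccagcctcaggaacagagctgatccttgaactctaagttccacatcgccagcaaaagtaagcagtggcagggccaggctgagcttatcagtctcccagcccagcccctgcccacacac

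Mttp, chr3:138143369-138143668, minus strand: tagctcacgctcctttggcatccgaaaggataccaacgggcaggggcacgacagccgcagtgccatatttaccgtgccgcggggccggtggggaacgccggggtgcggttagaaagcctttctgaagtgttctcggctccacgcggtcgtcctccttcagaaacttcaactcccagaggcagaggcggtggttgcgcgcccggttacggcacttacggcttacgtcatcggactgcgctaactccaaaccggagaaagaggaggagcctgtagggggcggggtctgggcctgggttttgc

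Windows were found for 8 of the 10 genes, 12 in all, since a gene can have several starts; Apoc1 and Apoc3 are named only. The motifs, read on both strands, were TATAAA (the TATA box), TGTTTGC and TTGTTTAC (forkhead factors), AGGTCAAAG and CAAAGTCCA (nuclear receptors such as HNF4A), TTGCGCAA (C/EBP), CACGTG (E-box), TTATGTAA (D-box) and ATCACCCCA (SREBP). TGTTTGC occurred in 4 of the 12 windows, those of Apoa1 (2 matches), Apob (on the opposite strand) and both overlapping windows of Apoa5, against 5.07% of all 32851 windows in the table. TATAAA occurred in 5 of the 12 windows, those of Apob, Apoa2, both of Apoa5 and an alternative start of Apoe, against 13.6% of all windows. Relative to the start it lay at -60 in Apob, -212 in Apoa2, and -96 and -100 in Apoe. In Apoa5 it lay at -31 and -56, the same site counted in both overlapping windows. Position was not part of the search, so a match is not called a TATA box. CACGTG stood in both Apoa5 windows, against 7.15% of all, and TTGTTTAC in 1 Apoa2 window, against 1.23%. The other 5 motifs matched none of the 12. The printed Apoe and Mttp windows held none of the 9, which says only that these letters are not in these windows. A match is a description of letters and not a bound site. Whether any motif bears on the difference of its gene was not tested.

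Apob and Mttp, the genes of VLDL assembly, went opposite ways on their brighter probe sets. Apob had an intensity of 337 in the CR pool and 647 in the AL pool, a log2 difference of -0.94 and a ratio of 0.521. Its other probe set was far dimmer, with 18.4 in CR and 16.0 in AL, and differed by 0.20. The 2 Apob probe sets thus disagreed in sign, and their mean was -0.37. Mttp had 533 in CR and 416 in AL, a difference of 0.36. The other Mttp probe set had 162 in CR and 156 in AL, a difference of 0.05. Both Mttp probe sets were higher in CR as deposited, and the brighter one was at -0.02 or -0.66 when the arrays were rescaled on the cre spike or on all hybridisation spikes. P4hb, the protein disulfide isomerase that is the small subunit of the transfer protein, had 736 in CR and 1541 in AL, a difference of -1.07.

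**Figure D1:**
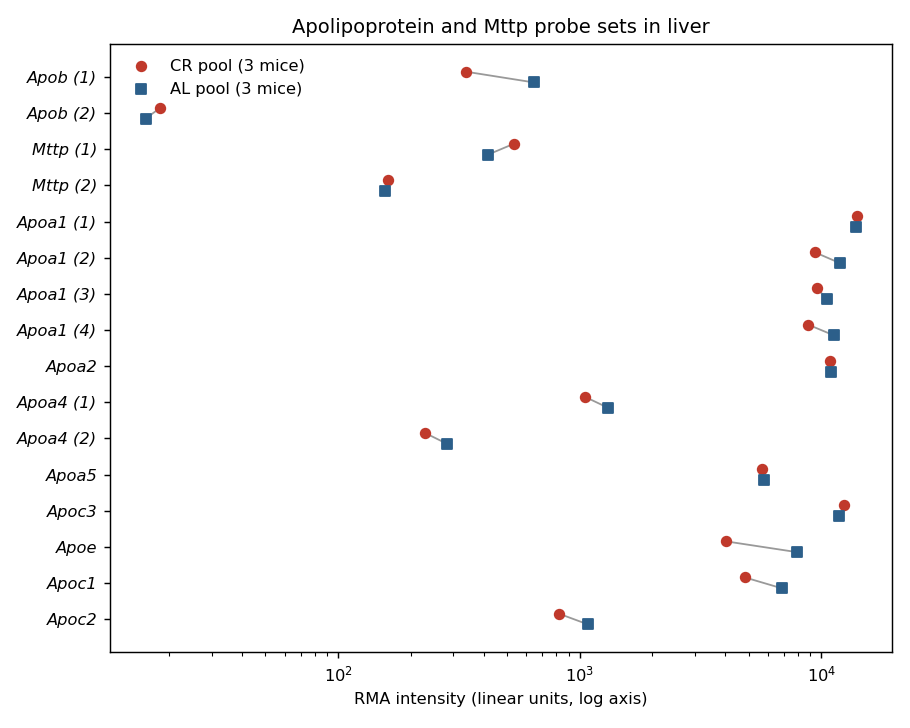
RMA intensity (log axis) of the 16 probe sets in the CR pool (circles) and the AL pool (squares); each row is 1 probe set, numbered from the brightest where a gene has several, and there are no error bars because each diet has 1 array. Apoe at 4037 in CR against 7959 in AL and the brighter Apob probe set at 337 against 647 show the widest gaps, while the marks of Apoa2, Apoa5 and Apoc3 nearly coincide.

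The HDL proteins had almost the same signal in both pools on their brightest probe sets, while the other Apoa1 probe sets were lower in CR. The brightest Apoa1 probe set, of the _a_at type, had 14045 in CR and 13936 in AL, a difference of 0.01. The other 3 Apoa1 probe sets, all of the _x_at type, had 9407, 9647 and 8809 in CR against 11956, 10536 and 11291 in AL. Their differences were -0.35, -0.13 and -0.36. The 4 Apoa1 probe sets therefore spanned 0.37 on the log2 scale, with an SD of 0.18, and their mean was -0.21. Apoa2, with 1 probe set of the _a_at type, had 10821 in CR and 10952 in AL, a difference of -0.02. When _x_at, _s_at and _a_at probe sets, which can bind several transcripts, were left out, neither Apoa1 nor Apoa2 kept one.

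These values lie at the upper end of the scale. In the CR array no probe set was brighter than Apoa1's first one, and 4 were brighter than Apoc3; in the AL array 2 and 10 were. This is a place on the scale of the processed values, not a scanner reading, and does not rank transcripts. Among the 69 measured genes with a mean intensity of at least 4096, 6 of the 10 described here included, the 10th to 90th percentile of differences ran from -0.44 to 0.33, against -0.79 to 0.52 among 348 genes from 1024 to 4096. Whether near-equal values at the top reflect a limit of the array was not tested.

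Among the proteins that tune lipolysis, some had near-equal signals and others lower ones in CR. Apoc3, the brake on lipoprotein lipase, had 12461 in CR and 11886 in AL, a difference of 0.07. Apoa5, which promotes lipolysis, had 5677 in CR and 5806 in AL, a difference of -0.03. Both were within a few percent between pools. Apoc2, the lipase cofactor, had 819 in CR and 1084 in AL, a difference of -0.40 and a ratio of 0.756. Apoa4, a satiety-linked apolipoprotein of gut and liver that rides on triglyceride-rich particles and HDL, had 1051 in CR and 1307 in AL on its brighter probe set and 229 in CR and 282 in AL on the other. The 2 Apoa4 probe sets, of different types and brightness, gave nearly the same difference, -0.31 and -0.30.

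Apoe and Apoc1 were lower in the CR pool. Apoe, the ligand through which LDL-receptor family members clear remnants, had 4037 in CR and 7959 in AL, a difference of -0.98 and a ratio of 0.507. Of all 12644 measured genes 2.96% had a difference as low or lower, and of the 1497 brightest 4.54% did. Apoc1, which slows the uptake of remnants and inhibits cholesteryl ester transfer protein in humans, had 4840 in CR and 6874 in AL, a difference of -0.51. Both genes have 1 probe set each, so no second probe set bears on either value. That of Apoe is of the _a_at type and dropped out when probe sets that can bind several transcripts were left out. Macrophages also make Apoe and Apoc1. Of 12 measured Kupffer cell and macrophage markers 11 were lower in CR, with a median of -0.54 and a summed intensity of 3066 in CR against 3591 in AL. Of all measured genes 52.1% were lower. Clec4f, which defines Kupffer cells, had 121 in CR and 196 in AL, a difference of -0.69, and Cd68 was below the measured range in both pools. The brightest markers differed less, with Cd5l at -0.08, Csf1r at -0.09, Ctss at -0.30 and C1qb at 0.05 (lowest probe set -1.25). Hepatocyte markers had a median of -0.10 over 10 genes, none past 2-fold. The part of macrophage RNA in the Apoe and Apoc1 values was not tested.

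**Figure D2:**
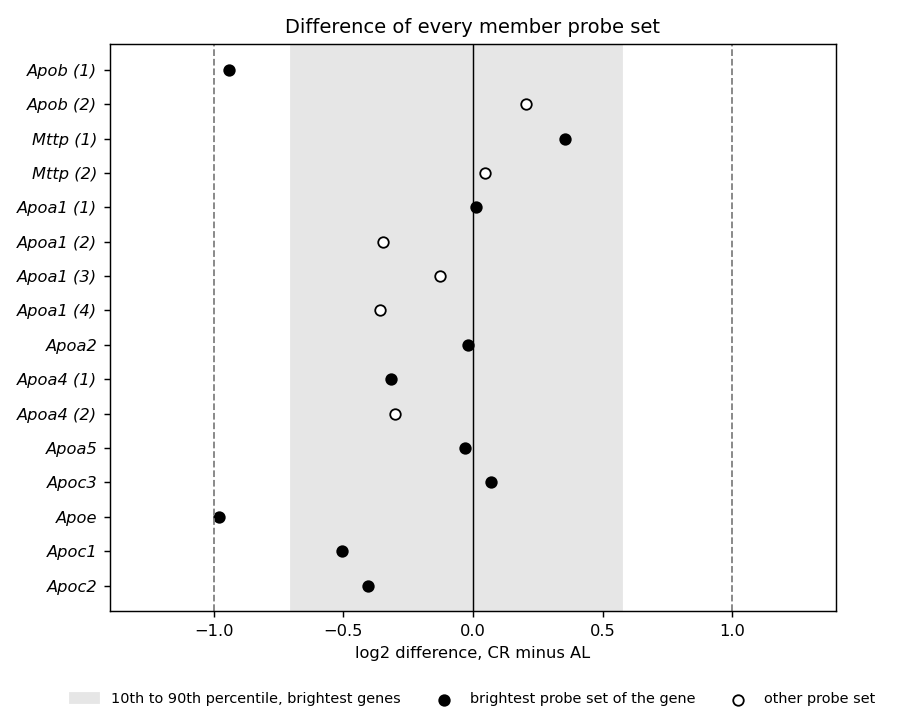
Log2 difference, CR minus AL, of each probe set; filled circles stand for the brightest probe set of a gene and open circles for its others, the grey band is the 10th to 90th percentile (-0.70 to 0.58) of the 1497 measured genes in the top 5% of intensity, and dashed lines mark 2-fold. Only Apoe and the brighter Apob probe set lie outside the band, and the second Apob probe set lies on the other side of 0.

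Taken by the brightest probe set, 7 of the 10 genes were below 0 and 3 above (Mttp, Apoc3 and Apoa1), with a median of -0.17, and all 10 were below 0 when the arrays were rescaled on hybridisation spikes. Over all measured genes 52.1% were below 0 and the median was -0.02. Over the 1497 measured genes in the top 5% of intensity, a class that held all 10, 48.7% were below 0 and the median was 0.01. None of the 10 was at least 2-fold lower or higher. Of measured genes 2.79% were 2-fold lower and 1.8% higher, and of the brightest 4.34% and 3.27%, so a count of 0 among 10 genes is near the background. At 1.5-fold, 2 of the 10 were lower, Apoe and Apob, against 9.49% of measured genes and 13.2% of the brightest. With the mean over probe sets, an alternative chosen after seeing the data, the count was 1, Apoe, because Apob was then at -0.37. None was 1.5-fold higher, against 6.76% and 9.62%. All 10 genes passed the intensity limit in both pools on the brightest probe set, so none entered through 1 diet alone. As a yardstick of technical agreement, the median SD between probe sets of 1 gene was 0.29 over 4924 genes, which does not cover the spread between mice.

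**Figure D3:**
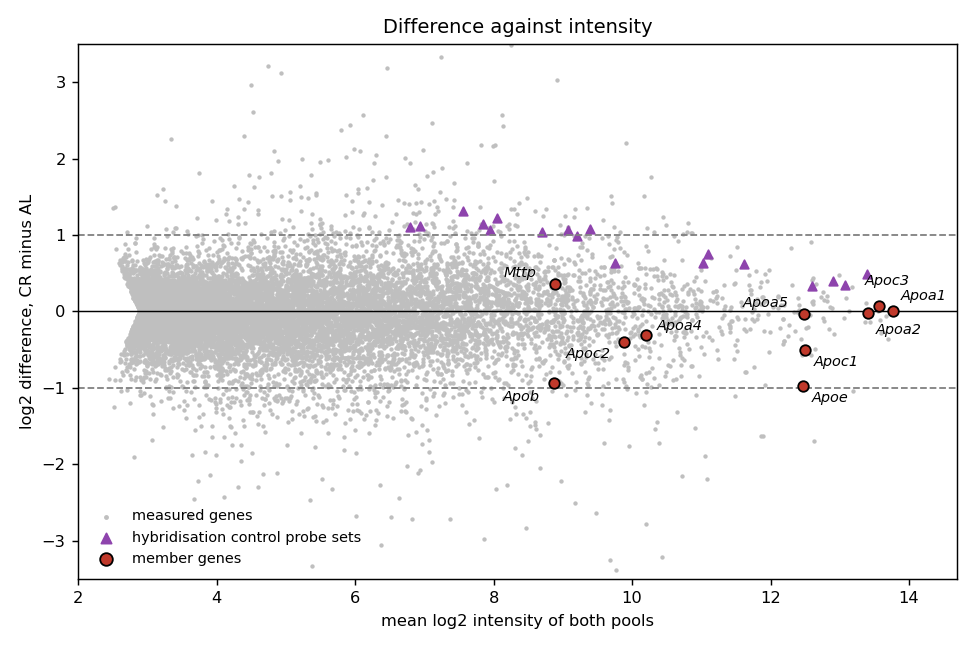
Log2 difference, CR minus AL, against mean log2 intensity for the measured genes (grey dots, brightest probe set; 15 genes beyond 3.5 in either direction are not drawn), the 10 genes described (labelled circles) and the hybridisation control probe sets (triangles). The spikes all lie above 0, from 1.32 down to 0.33, and the 10 genes lie between 0.36 and -0.98.

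The scale itself limits these directions. The spikes bioB, bioC, bioD and cre, bacterial and phage transcripts added during hybridisation, were all brighter in the CR array, by a median of 1.13, 1.05, 0.63 and 0.37, and beta-actin and Gapdh control probe sets were lower in CR, from -0.67 to -1.61. Beta-actin stood at -0.73 on its 3′ probe set, -1.61 on the middle one and -0.83 on the 5′ one. Gapdh stood at -0.67, -1.11 and -0.85 in that order. The 5′ signals were far below the 3′ ones in both arrays. For beta-actin they were 15.9 against 1425 in CR and 28.2 against 2357 in AL. Whether RNA quality or labelling differed between the pools was not tested. A shift by cre moved the median of all measured genes to -0.40 and a shift by all spikes moved it to -1.04. Cre is the spike nearest in intensity to Apoa1, Apoa2, Apoa5 and Apoc3, with 6977 to 12709 in CR and 5565 to 9085 in AL. It is also nearest to Apoe and Apoc1 in AL. In CR these 2 genes, at 4037 and 4840, lay nearer to the brightest bioD probe set, at 3893. A shift by cre puts Apoe at -1.35 and Apob at -1.32, past 2-fold, although Apob is far dimmer than cre. Differences are given relative to the typical gene unless a spike is named, and any positive difference under 1.02 turns negative on the scale of all spikes.

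The order of the genes along the genome was not part of their choice. In the GRCm38.p6 gene order Apoe, Apoc1, Apoc4 and Apoc2 are neighbours on chromosome 7, and Apoa1, Apoc3, Apoa4 and Apoa5 are neighbours on chromosome 9. All 4 genes of the Apoe cluster were lower in CR, at -0.98, -0.51, -0.34 and -0.40 in that order, against 52.1% of all measured genes. Apoc4, a minor VLDL apolipoprotein outside the 10, had 1976 in CR and 2496 in AL. The genes of the Apoa1 cluster stood at 0.01, 0.07, -0.31 and -0.03, with a median of -0.01, against -0.45 for the Apoe cluster. On these probe sets the ranges do not overlap, but Apoa4 at -0.31 lies next to Apoc4 at -0.34 and a pair of dimmer Apoa1 probe sets lie within the other range, at -0.35 and -0.36. The 10 nearest measured neighbours of the Apoe cluster, described at the end with wider windows, were also all below 0, with a median of -0.38. With 1 array per diet the contrast between clusters has no test.

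Other genes with apolipoprotein names or links to lipoproteins were split as well, with 11 of 14 measured genes below 0. Their median was -0.17, and 1 of the 14 was past 2-fold, downward. Of all measured genes 52.1% were below 0 and 2.79% were 2-fold lower. Saa4, a constitutive serum amyloid protein of HDL, had 1014 in CR and 2529 in AL, a difference of -1.32, and its other probe set was at -1.25. Pon1, the HDL-bound paraoxonase, had 832 in CR and 1542 in AL, a difference of -0.89. Apoh, or beta-2-glycoprotein I, was at -0.54 with its other probe set at -0.52. Apom, the sphingosine-1-phosphate carrier of HDL, was at 0.54 with 4848 in CR and 3343 in AL, but its other probe set was at -0.11. As deposited, the median of this list equals that of the 10 genes to 2 decimals, but the match depends on the setting. With the mean over probe sets the list was at -0.12 and the 10 genes at -0.26. With the stricter intensity limit they were at -0.27 and -0.17.

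Of 30 measured genes of VLDL assembly and secretion, 7 passed 2-fold, all of them downward, against 2.79% of measured genes lower and 1.8% higher, while 18 lay below 0 and the median was -0.23. Besides P4hb they were the chaperones Hspa5 at -2.19 (one probe set at -0.30) and Hsp90b1 at -1.09, the disulfide isomerase Pdia4 at -1.74, the membrane protein Vmp1 at -1.24 (other probe set 0.34), the lipid hydrolase Aadac at -1.09 and the secreted phospholipase homologue Pla2g12b at -1.04. Of these 7, Hspa5, Hsp90b1, Pdia4 and P4hb are general folding factors of the endoplasmic reticulum. This list, like the others, was chosen with earlier results of these data known. Its count beside the share of measured genes is therefore a description and not a test of VLDL assembly. Pla2g12b, which takes part in loading lipid onto VLDL in mice, had 61.8 in CR and 127 in AL. Just short of 2-fold upward, and singled out after their values were seen, were the carboxylesterases Ces1g at 0.99 and Ces1d at 0.84 and the lipid droplet genes Fitm2 at 0.89 and Plin2 at 0.83. Among 7 measured genes of Apob mRNA editing, the deamination that yields the short Apob48 form, the deaminase Apobec1 had 37.0 in CR and 55.7 in AL, a difference of -0.59. The co-chaperone Dnajb11 was at -1.65, Celf2 at 0.70 (lowest probe set -0.10) and Hnrnpab at -0.48 (probe sets from -0.70 to 0.29), with a list median of -0.18, which was -0.03 with the mean over probe sets and 0.07 without probe sets that can bind several transcripts.

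**Figure D4:**
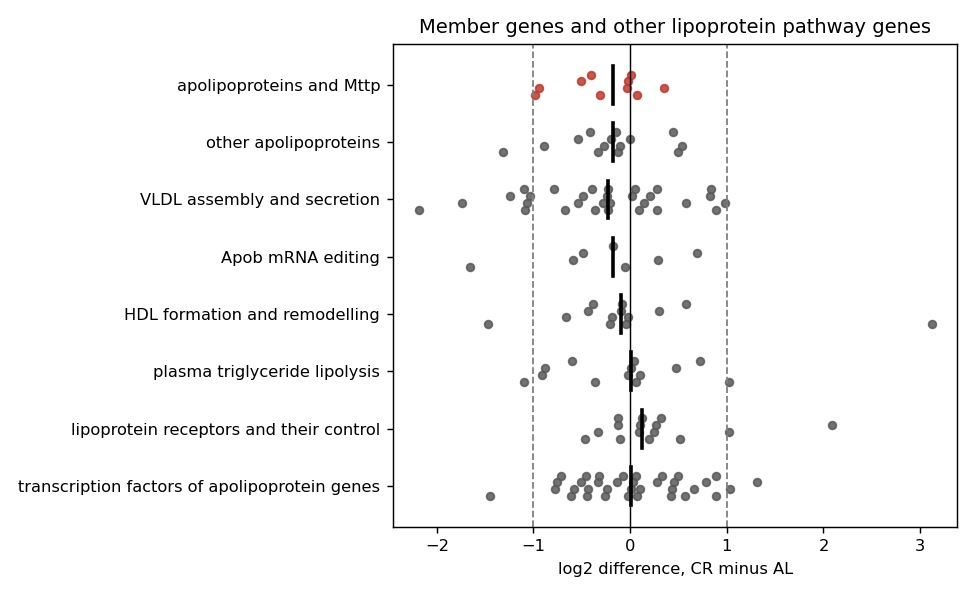
Log2 difference, CR minus AL, of the 10 genes described (top row) and of the measured genes of 7 lists of lipoprotein biology, each dot 1 gene by its brightest probe set; black bars are medians and dashed lines mark 2-fold. The 10 genes stay inside the 2-fold lines, with a median of -0.17. The lists of VLDL assembly and HDL genes hold more genes and mostly dimmer ones. VLDL assembly genes reach -2.19 and HDL genes run from -1.47 to 3.12. On the scale of all spikes every median lies below 0.

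Some partners that act on the particles had larger single differences than any of the 10 genes. Those named are the largest of lists that hold more genes and mostly dimmer ones, so the sets are not compared. Among 13 measured HDL genes the median was -0.09, with 1 gene 2-fold higher and 1 lower, against 1.8% and 2.79% of measured genes. Abca1, the transporter that loads Apoa1 with cholesterol, had 121 in CR and 334 in AL, a difference of -1.47. The endothelial lipase Lipg was at 3.12, with 89.5 in CR and 10.3 in AL, near the limit of 7.38, and another probe set at -0.04. Atp5b, an ATP synthase subunit also described as a cell-surface Apoa1 receptor, was at -0.66 and the phospholipid transfer protein Pltp at 0.57 (other probe set 0.06). Among 13 measured lipolysis genes the median was 0.01, and again 1 gene was 2-fold higher and 1 lower. The lipase Lpl was at -1.10 and its inhibitor Angptl4 at 1.02, with 249 in CR and 123 in AL. Angptl8, a feeding-induced regulator of Lpl, was at -0.88, and Sel1l, needed for Lpl to leave the endoplasmic reticulum, at -0.91 (highest probe set -0.15). Of 15 measured receptor genes 2 passed 2-fold, both upward, against 1.8% of measured genes higher, and the median was 0.12, and all list medians were negative when the arrays were rescaled on cre or on all spikes. The 2 were the Apoe receptor Vldlr at 2.09, with 58.7 in CR, 13.8 in AL and its other probe set at 0.07, and the fatty acid receptor Cd36, just past 2-fold at 1.02. The remnant-binding proteoglycan Sdc1 was at 0.51 (lowest probe set -0.02) and the lipolysis-stimulated receptor Lsr at -0.47.

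Among 35 measured transcription factors and cofactors linked to apolipoprotein genes, 2 were at least 2-fold higher and 1 lower, and the median was 0.01. Of all measured genes 1.8% were 2-fold higher and 2.79% lower. Foxo1, which drives Mttp and Apoc3 in mouse liver, had 610 in CR and 246 in AL, a difference of 1.31 (lowest probe set 0.48). Ppara, the fasting-activated receptor known to induce APOA5 in humans, had 390 in CR and 190 in AL, a difference of 1.04. Xbp1 was at -1.45, with all 4 probe sets lower, and the coactivator Ppargc1b at 0.89. Hnf4a, the nuclear receptor on which most hepatic apolipoprotein genes depend, and the forkhead factors Foxa1 and Foxa2 were singled out after their values were seen. Hnf4a had 963 in CR and 1322 in AL, a difference of -0.46, with its 4 probe sets up to 0.07, and Foxa1 and Foxa2 were at -0.75 and -0.72. Apoc3 and Apoa5 were near 0, and Mttp was at 0.36 on its brighter probe set as deposited and below 0 on either spike scale. Whether Foxo1 or Ppara bears on any of these values was not tested.

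Small intestine also makes Apoa4, Apob and Apoa1. Of its 11 marker genes with a probe set, 7 were below the measured range in both pools, including Vil1, Cdh17, Cdx1 and Cdx2. The 4 measured had a summed intensity of 389 in CR and 505 in AL, mostly Fabp2 at 362 and 478. Adipocyte, cholangiocyte, endothelial and stellate markers had medians of 0.21, 0.31, -0.06 and -0.21 over 3, 4, 6 and 8 measured genes, and none passed 2-fold. Of 5 blood markers with a probe set, Hba-a1 and Slc4a1 were below the measured range in both pools. The 3 measured, Alas2, S100a8 and S100a9, were lower, from -1.75 to -2.43, against 2.79% of measured genes at least 2-fold lower. Their CR values of 7.43, 10.9 and 10.2 lay near the limit of 7.38, and in AL they had 40.2, 53.4 and 34.1.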

How the data were processed

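Biotin-labelled cRNA of 6 ug total RNA per pool was hybridised to Affymetrix mouse arrays, per the labels' protocols. The authors' deposited intensity values come from RMA (named in the submitters' processing notes), which corrects background, normalizes arrays to each other and summarises probes. Its version and options and any detection calls are not given in the sources used here. Values are on a linear scale (medians 7.42 in CR and 7.35 in AL over 45101 probe sets), so log2 was taken and the difference CR minus AL computed. Normalization between arrays hides a shift shared by most genes. Depth does not apply to arrays, and 1 array per diet limits the precision.

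Names came from the platform annotation of 2016: 34945 probe sets had 1 symbol, 932 several and 9160 none, besides 64 controls. Probe sets with several symbols were not used. The brightest probe set of a gene, by mean log2 intensity, stood for it, and the gene counted as measured if its higher value reached 7.38, the median of all values. At least 2-fold was a rule of size, not a test. Named are all members with every probe set, and of each of the 7 pathway lists the 4 largest absolute differences and all past 2-fold, with exceptions stated. No likeness of pattern was computed with 2 arrays. Members and lists were chosen with earlier results of these data known. Alternatives changed the probe set rule, the intensity limit, the fold and the scaling. The calculation was tested on simulated data. Promoter windows are from RefSeq (GRCm38.p6), and 1 planned motif is not reported here. Software was Python 3.11.15 with statsmodels 0.14.6 (loess, span 0.4), pandas 2.3.3, numpy 2.4.6 and, for figures, matplotlib 3.10.9.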

Additional observations from a re-analysis of the deposited data

How the results depend on the processing

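No paired analysis was possible because each diet has 1 array, and no replicate could be left out. Scaling on the spikes moved all member genes, and the mean over probe sets moved Apob from -0.94 to -0.37. The member median was -0.55 on cre and -1.19 on all spikes, with 2 and 8 of 10 genes at least 2-fold lower, against -0.17 and 0 as deposited, and all 10 were below 0 in both. At 1.5-fold, 2 genes were lower. Under the other 7 alternatives (mean over probe sets, no or stricter intensity limit, median centring, loess, the top 5% of intensity, and no _x_at, _s_at or _a_at probe sets) the median ran from -0.30 to -0.16 and no gene reached 2-fold; Apoa1, Apoa2 and Apoe had no probe set left in the last, which held 7 genes. Apoa1 was below 0 after median centring and in the mean over probe sets. List medians changed by less than 0.29 except on the spikes, where all 7 were negative. That of Apob mRNA editing turned to 0.07 without _x_at, _s_at and _a_at probe sets, and those of lipolysis and transcription factor genes, both 0.01 as deposited, were between -0.02 and 0.06 in these alternatives.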

Other observations

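The genes beside both clusters, chosen after the apolipoprotein values were seen, were described in the same way. Of the 10 measured protein-coding neighbours of the Apoe cluster, 5 on each side, all 10 were below 0, with a median of -0.38 and a range from -1.65 to -0.02. They included Bcl3, an NF-kB cofactor, with 32.5 in CR and 102 in AL, and Tomm40, of the mitochondrial import pore, with 9.35 in CR and 16.3 in AL, while Clptm1 was at -0.10. Of the 10 neighbours of the Apoa1 cluster, 4 were below 0, with a median of 0.07 and a range from -0.47 to 0.33, among them the kinase Sik3 at 0.33 and Zpr1 at 0.11. With 10 neighbours on each side, 14 of 20 were below 0 around the Apoe cluster and 9 of 20 around the Apoa1 cluster, and with 20 on each side 24 of 40 and 20 of 40, against 52.1% of all measured genes. With the mean over probe sets, the counts around the Apoe cluster were 10 of 10, 15 of 20 and 24 of 40, and around the Apoa1 cluster 4 of 10, 7 of 20 and 15 of 40. Several of the near neighbours are dim, such as Relb with 5.58 in CR, below the measured range, and 7.57 in AL, close to its limit.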
